A study of Homo sapiens with 8 samples.

Results

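Transcripts of 8 secreted stress hormones and growth factors, STC1, STC2, VEGFA, INHBE, TAC1, GDF15, FGF21 and VGF, were followed in 293T cells, an established embryonic kidney line that expresses the large T antigen of SV40. Cells received 10 µM 5-NA, 10 µM CBU-028 or 10 µM EerI for 10 h, or served as control, and each group was represented by 2 arrays. EerI is a small-molecule inhibitor of the p97 ATPase that extracts misfolded proteins from the endoplasmic reticulum (ER). 5-NA (5-nitrofuryl-acrolein) corresponds to its nitrofuran-containing part without the aromatic part. CBU-028, a compound of the study known by a code name, carries the same nitrofuran-containing part with a different benzene-containing group. The labels give neither a genetic change nor a solvent for any of the cells, and they do not say whether the duplicates of a group came from separate cultures. One legend of the study speaks of a biological replicate without saying more, and the p-values measure the spread between these samples, which may be technical. One doubt concerns identity: source and description name 5-NA for both of its samples, whereas the number in their titles belongs to a different compound in the study's compound list. The members were taken by name: the array annotation assigned 16 of 54675 probe sets to these 8 of 19775 genes, with 4 probe sets for VEGFA, 3 each for STC1 and GDF15, 2 for STC2 and 1 for each of the others. A further probe set that the study names STC1 has no such symbol in this annotation and was not analysed here. No filter on low values was applied, so all 16 entered the tests.

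Secreted hormones of this kind carry a signal of cellular stress out of the cell. When misfolded proteins accumulate in the ER or amino acids run short, kinases slow general translation and favour translation of the transcription factor ATF4, which with CHOP (encoded by DDIT3) and C/EBP proteins switches on a common set of target genes. STC2, VEGFA, INHBE, GDF15 and FGF21 are known to respond to this pathway, VEGFA also to hypoxia through HIF1A, and TAC1 and VGF are known mainly as neuropeptide precursors of nerve and endocrine cells. Proteins of all 8 genes enter the secretory pathway through the ER.

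The values of all arrays are on the log2 scale after RMA, which gives the arrays a common distribution, so a change in total RNA cannot be seen in them. In a bulk sample, fewer cells of a kind and less RNA per cell cannot be told apart. Duplicates correlated with a Pearson's r of 0.995 to 0.998 across probe sets, which are not independent of each other. The probe sets for 18S ribosomal RNA read 12.63 and 12.83 in 5-NA cells, 12.86 and 12.45 in CBU-028 cells and 11.92 and 12.07 in EerI cells, against 11.68 and 11.68 in control cells. The 3' minus 5' difference of ACTB, a gauge of RNA integrity, was 0.18 and 0.36 in 5-NA cells, 0.07 and 0.20 in CBU-028 cells and 0.14 and 0.18 in EerI cells, against 0.15 and 0.13 in control cells. Both measures were highest on a treated array, and their part in the results below was not tested. Of 7 markers fixed for the line, means over the 8 arrays ran from 6.70 (PAX2) to 13.71 (VIM), with KRT18 at 12.27 and NEFL at 13.41. Of 14 markers fixed for other cell types, they ran from 4.63 (PTPRC of leukocytes) to 9.15 (COL1A1 of fibroblasts), with CDH5 of endothelial cells at 5.28, PECAM1 of the same cells at 7.39, HBB of red cells at 7.54 and GAP43 of neurons at 8.52. The ranges overlap, and levels of different probe sets are not on one scale, so these values do not settle the cell type.

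Of the 8 genes, 5 had an entry in the RefSeq promoter set (build GRCh38.p14), and STC1, VEGFA and INHBE were not matched. The sequences shown are the 250 bases before the RefSeq start of STC2, which rose the most on its brighter probe set, of TAC1 and FGF21, which also rose, and of VGF, for which no change was called. For VGF this start lies inside the span that RefSeq gives the gene, downstream of its outermost end. Capitals mark matches, on either strand, to motifs of stress-responsive factors: TGATGNAA (the composite of C/EBP and ATF), TGACGTCA (the cAMP response element), TGANTCA (AP-1), TGACNNNGC (the antioxidant response element) and ACGTG (the hypoxia response core).
STC2 (chr5:173328415-173328664, minus strand): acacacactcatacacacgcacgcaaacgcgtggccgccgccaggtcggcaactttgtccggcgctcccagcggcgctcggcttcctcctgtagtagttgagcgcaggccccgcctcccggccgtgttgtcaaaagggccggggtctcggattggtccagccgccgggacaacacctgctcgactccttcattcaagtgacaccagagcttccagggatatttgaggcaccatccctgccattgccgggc
TAC1 (chr7:97731836-97732085, plus strand): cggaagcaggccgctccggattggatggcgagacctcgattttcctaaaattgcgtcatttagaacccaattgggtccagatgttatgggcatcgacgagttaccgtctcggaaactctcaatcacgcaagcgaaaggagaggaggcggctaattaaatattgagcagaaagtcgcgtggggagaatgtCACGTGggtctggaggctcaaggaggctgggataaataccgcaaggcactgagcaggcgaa
FGF21 (chr19:48755274-48755523, plus strand): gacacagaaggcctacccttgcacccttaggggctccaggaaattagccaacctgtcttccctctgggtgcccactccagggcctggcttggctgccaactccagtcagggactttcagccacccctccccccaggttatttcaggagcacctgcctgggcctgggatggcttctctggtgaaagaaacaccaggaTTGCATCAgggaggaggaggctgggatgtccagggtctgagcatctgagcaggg
VGF (chr7:101165570-101165819, minus strand): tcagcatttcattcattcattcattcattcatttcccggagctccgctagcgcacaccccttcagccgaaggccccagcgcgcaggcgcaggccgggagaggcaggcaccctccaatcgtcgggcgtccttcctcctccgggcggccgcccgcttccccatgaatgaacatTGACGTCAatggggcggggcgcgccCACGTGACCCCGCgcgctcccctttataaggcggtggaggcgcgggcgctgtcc
FGF21 held the C/EBP-ATF composite, read on the reverse strand as TTGCATCA, 54 to 47 bases before its start. TGATGNAA occurs in 3.14% of the 35116 promoters searched. VGF held the cAMP response element 79 to 72 bases before its start, a motif present in 1.65% of promoters. It also held an overlapping antioxidant response element and hypoxia core, with TGACCCCGC 50 to 42 bases before the start, and those motifs occur in 10.9% and 18.5% of promoters. In TAC1 the palindrome CACGTG, which matches the hypoxia core on both strands, lay 61 to 56 bases before the start. STC2 and GDF15 held no match to any of the 5 motifs in this window, and AP-1 (6.57% of promoters) was matched in none of the 5 genes. A match describes letters and is not evidence of a bound factor.

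Most of the 8 genes were higher after treatment than in control cells, and STC2, VEGFA, INHBE and TAC1 rose with every compound. With 5-NA, 9 of the 16 member probe sets rose at an adjusted p under 0.05 in limma, where 7.32% of all 54675 probe sets did, and 0 fell, where 7.9% of all did. With CBU-028, 10 rose (4.4% of all probe sets) and 3 fell (5.27%), the 3 being the probe sets of STC1. With EerI, 8 rose (0.357% of all) and 0 fell (0.17%). At an unadjusted p under 0.05, 1 member probe set was lower with 5-NA and 3 with EerI, and the methods' ANOVA with adjustment called 0 lower with either. STC1 on 204597_x_at was called lower with 5-NA (adjusted p = 0.0376) and EerI (0.0387) when limma was run on probe sets with a highest group mean of at least 7, and with EerI under array weights (0.0184). Counting only changes of at least 2-fold, 4 member probe sets rose with 5-NA (0.483% of all) and 0 fell (0.13%), 6 rose with CBU-028 (0.254%) and 2 fell (0.176%), and 5 rose with EerI (0.0914%) and 0 fell (0.00732%). The median log2 difference from control over the 8 genes was 0.86 with 5-NA, 1.09 with CBU-028 and 0.91 with EerI, against −0.03, −0.01 and 0.00 over all genes. The genes were proposed with earlier results of these data known, so these counts describe the members. The 3 comparisons share the control arrays.

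**Figure D1:**
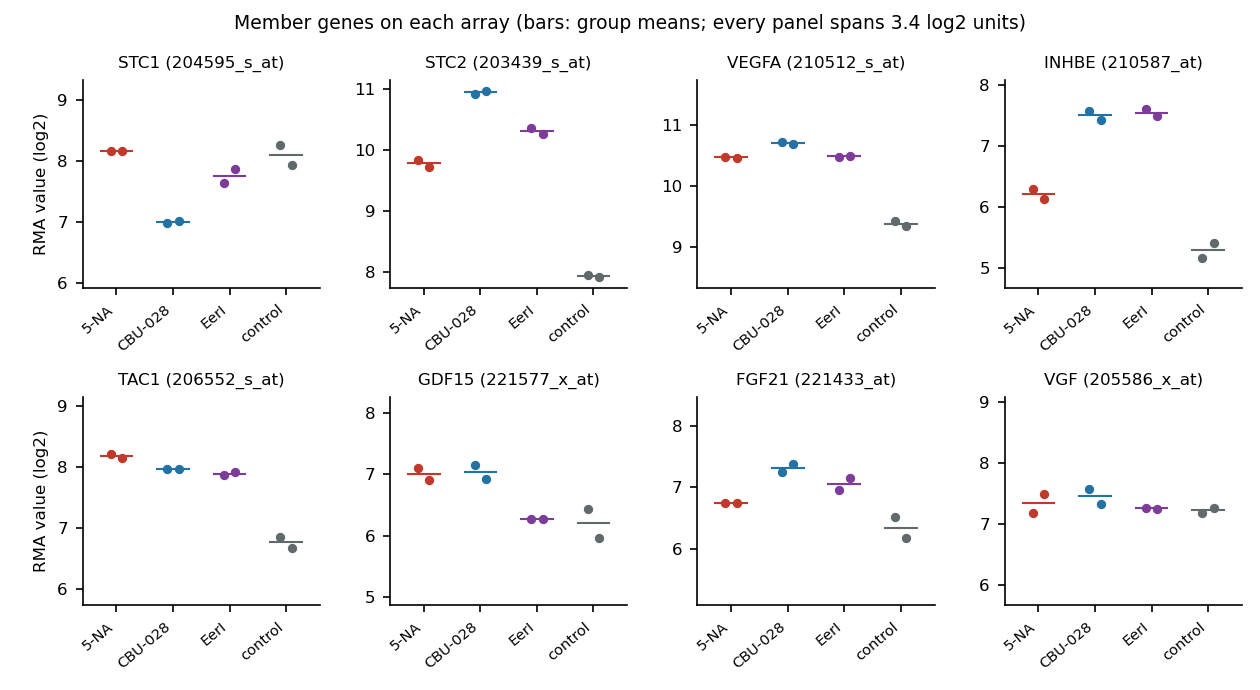
RMA value (log2, vertical axis) of the 8 genes on each array of 5-NA, CBU-028, EerI and control cells, on the probe set of each gene with the highest mean. Points are the 2 arrays of a group and bars their mean, and every panel spans the same range; STC2, VEGFA, INHBE and TAC1 lie above control in all 6 treated arrays, STC1 is lowest in CBU-028 cells and VGF stays within 7.18 to 7.58.

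STC2, a stanniocalcin and thus a glycoprotein hormone that is induced by ER stress and inhibits the protease PAPP-A, showed the largest rise of the 8 genes with each of the 3 compounds on its brighter probe set. On its brighter probe set, 203439_s_at, the log2 value was 9.84 and 9.72 in 5-NA cells, 10.91 and 10.97 in CBU-028 cells and 10.35 and 10.27 in EerI cells, against 7.94 and 7.91 in control cells. The 4 groups did not overlap, in the order CBU-028, EerI, 5-NA and control. Relative to control, STC2 was 3.6-fold higher with 5-NA (log2 difference 1.85 ± 0.08 SE, limma adjusted p = 1.67e-05), 8.05-fold higher with CBU-028 (3.01 ± 0.08, adjusted p = 6.95e-07) and 5.21-fold higher with EerI (2.38 ± 0.08, adjusted p = 4.31e-06). Its rise ranked 13 with 5-NA, 3 with CBU-028 and 5 with EerI among the 19775 genes. The second probe set, 203438_at, read 9.54 and 9.66 in 5-NA cells, 10.46 and 10.42 in CBU-028 cells and 9.55 and 9.72 in EerI cells, against 8.19 and 8.06 in control cells. It rose with all 3 compounds, by 1.47, 2.32 and 1.51 on the log2 scale with 5-NA, CBU-028 and EerI, so its size was smaller than on the first probe set in each. With EerI this rise was below that of INHBE (2.25), and with 5-NA and CBU-028 it was still the largest of the 8 genes. In the methods' ANOVA the adjusted p of 203438_at with EerI was 0.0525. The gene lies on chromosome 5.

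STC1, the other stanniocalcin, known first as a calcium-lowering hormone of fish, went the other way in CBU-028 cells. Its brightest probe set, 204595_s_at, read 8.17 and 8.17 in 5-NA cells, 6.99 and 7.01 in CBU-028 cells and 7.65 and 7.86 in EerI cells, against 8.26 and 7.94 in control cells. Both CBU-028 arrays lay below all others, both EerI arrays lay just below control, and the 5-NA arrays lay between the control arrays. With CBU-028 STC1 was 2.15-fold lower than in control cells (log2 difference −1.10 ± 0.12, limma adjusted p = 0.000921), and its fall ranked 30 among 19775 genes. The other probe sets also fell with CBU-028, by 0.76 (204596_s_at, adjusted p = 0.00139 from limma) and by 1.80 (204597_x_at, adjusted p = 3.02e-05) on the log2 scale. The largest of these falls was on 204597_x_at, which read 6.87 and 6.96 in 5-NA cells, 5.39 and 5.43 in CBU-028 cells and 6.64 and 6.82 in EerI cells, against 7.30 and 7.12 in control cells. Its suffix, _x_at, marks a less specific probe set, whose probes can also match other transcripts. With EerI the 3 probe sets differed from control by −0.23 to −0.48 and none passed the test (adjusted p = 0.0892 to 0.421), and of the alternatives run, the floor of 7 and the array weights called 204597_x_at lower. With 5-NA they differed by −0.29 to 0.06 (adjusted p = 0.0781 to 0.795), and of the alternatives run, the floor of 7 called 204597_x_at lower. STC1 lies on chromosome 8.

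INHBE encodes the βE subunit of inhibins, which pairs into activin E, a member of the TGF-β superfamily made mainly by the liver. Its single probe set read 6.29 and 6.12 in 5-NA cells, 7.57 and 7.43 in CBU-028 cells and 7.60 and 7.48 in EerI cells, against 5.16 and 5.42 in control cells. CBU-028 and EerI arrays overlapped each other, and 5-NA arrays lay between them and control without overlap. INHBE rose 1.89-fold with 5-NA (log2 difference 0.92 ± 0.11, limma adjusted p = 0.00115), 4.63-fold with CBU-028 (2.21 ± 0.11, adjusted p = 2.13e-05) and 4.77-fold with EerI (2.25 ± 0.11, adjusted p = 4.63e-05). Among all genes, its rise ranked 134 with 5-NA, 9 with CBU-028 and 6 with EerI. The rise with EerI had an adjusted p of 0.0525 in the methods' ANOVA. INHBE lies on chromosome 12.

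GDF15, a distant member of the same superfamily that curbs food intake through the receptor GFRAL in the hindbrain, rose on 1 of its 3 probe sets. On 221577_x_at the log2 value was 7.10 and 6.90 in 5-NA cells, 7.16 and 6.92 in CBU-028 cells and 6.28 and 6.27 in EerI cells, against 6.43 and 5.97 in control cells. The 5-NA and CBU-028 arrays lay above all EerI and control arrays, and the EerI arrays lay between the control arrays. GDF15 was 1.75-fold higher with 5-NA (log2 difference 0.80 ± 0.15, limma adjusted p = 0.00756) and 1.79-fold higher with CBU-028 (0.84 ± 0.15, adjusted p = 0.00912), and differed by 0.08 ± 0.15 with EerI (adjusted p = 0.944). On 221576_at the differences from control were −0.02 with 5-NA, −0.03 with CBU-028 and 0.17 with EerI, and on 229868_s_at 0.25, 0.22 and −0.04, none of them called (adjusted p = 0.19 to 0.967). The spread of the control arrays weighs on these calls: without control replicate 2 the difference was 0.57 with 5-NA (adjusted p = 0.0526) and 0.61 with CBU-028 (adjusted p = 0.0596), and without 5-NA replicate 1 it was 0.70 with 5-NA (adjusted p = 0.0669). The methods' ANOVA, adjusted in the same way, gave adjusted p = 0.102 with 5-NA and 0.12 with CBU-028, and limma on CBU-028 and control arrays alone gave 0.062. The suffix _x_at marks probe sets whose probes can also match other transcripts, so the called probe set of GDF15 is the less specific kind. GDF15 lies on chromosome 19.

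FGF21, an endocrine fibroblast growth factor that acts on metabolism through FGF receptors and the co-receptor KLB, rose with CBU-028 and, at the edge of the threshold, with EerI. Its probe set read 6.75 and 6.75 in 5-NA cells, 7.26 and 7.39 in CBU-028 cells and 6.96 and 7.15 in EerI cells, against 6.51 and 6.17 in control cells. The groups did not overlap, in the order CBU-028, EerI, 5-NA and control. FGF21 was 1.98-fold higher with CBU-028 (log2 difference 0.98 ± 0.12, limma adjusted p = 0.00176) and 1.64-fold higher with EerI (0.72 ± 0.12, adjusted p = 0.0462), and with 5-NA it differed by 0.41 ± 0.12 (adjusted p = 0.0514). The call with EerI was lost when any single array of 5-NA, EerI or control cells was left out, where the difference was 0.54 to 0.89 (adjusted p = 0.0622 to 0.4). Leaving out an array of CBU-028 cells or control replicate 1 put 5-NA past the threshold (adjusted p = 0.0401 without either CBU-028 array and 0.034 without control replicate 1), and 8 of 22 alternatives in all did so. With CBU-028 the methods' ANOVA gave an adjusted p of 0.0549. FGF21, whose promoter holds the C/EBP-ATF composite, lies on chromosome 19.

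VEGFA encodes vascular endothelial growth factor A, the main inducer of new blood vessels. On its brightest probe set, 210512_s_at, the log2 value was 10.48 and 10.46 in 5-NA cells, 10.72 and 10.68 in CBU-028 cells and 10.47 and 10.50 in EerI cells, against 9.42 and 9.34 in control cells. All 6 treated arrays lay more than 1 log2 unit above both control arrays, and 5-NA and EerI arrays overlapped. VEGFA rose 2.12-fold with 5-NA (log2 difference 1.08 ± 0.08, limma adjusted p = 0.000136), 2.49-fold with CBU-028 (1.32 ± 0.08, adjusted p = 4.8e-05) and 2.14-fold with EerI (1.10 ± 0.08, adjusted p = 0.000312). Across its other 3 probe sets the rise was 0.58 to 0.91 with 5-NA and 0.72 to 1.23 with CBU-028, all called. With EerI 211527_x_at and 212171_x_at rose by 0.83 and 0.78, and 210513_s_at differed by 0.56 without passing the test (adjusted p = 0.0558). VEGFA lies on chromosome 6.

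TAC1, the precursor of the neuropeptides substance P and neurokinin A, rose with all 3 compounds, by 1.12 to 1.41 on the log2 scale. Its probe set read 8.21 and 8.16 in 5-NA cells, 7.97 and 7.96 in CBU-028 cells and 7.86 and 7.92 in EerI cells, against 6.86 and 6.68 in control cells. The 4 groups did not overlap, and 5-NA arrays were highest. TAC1 was 2.66-fold higher with 5-NA (log2 difference 1.41 ± 0.09, limma adjusted p = 7.12e-05), 2.3-fold higher with CBU-028 (1.20 ± 0.09, adjusted p = 0.000155) and 2.17-fold higher with EerI (1.12 ± 0.09, adjusted p = 0.00055). Its rise ranked 31 with 5-NA, 44 with CBU-028 and 27 with EerI among all genes. In the methods' ANOVA the adjusted p with EerI was 0.0545. TAC1 lies on chromosome 7.

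VGF, a granin-like precursor of secreted peptides that nerve growth factor induces, was called in no comparison. Its only probe set, 205586_x_at, read 7.18 and 7.50 in 5-NA cells, 7.58 and 7.34 in CBU-028 cells and 7.27 and 7.26 in EerI cells, against 7.19 and 7.27 in control cells. Like the called probe set of GDF15, it is of the less specific kind, whose probes can also match other transcripts. Only the CBU-028 arrays lay wholly above control, and the duplicates of 5-NA and CBU-028 cells lay further apart than the group means. The differences from control were 0.11 with 5-NA (95% interval −0.16 to 0.39), 0.23 with CBU-028 (−0.04 to 0.50) and 0.03 with EerI (−0.24 to 0.31). Larger changes of VGF than these limits are outside the intervals, and changes within them are not excluded. VGF, whose promoter holds a cAMP response element, lies on chromosome 7.

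**Figure D2:**
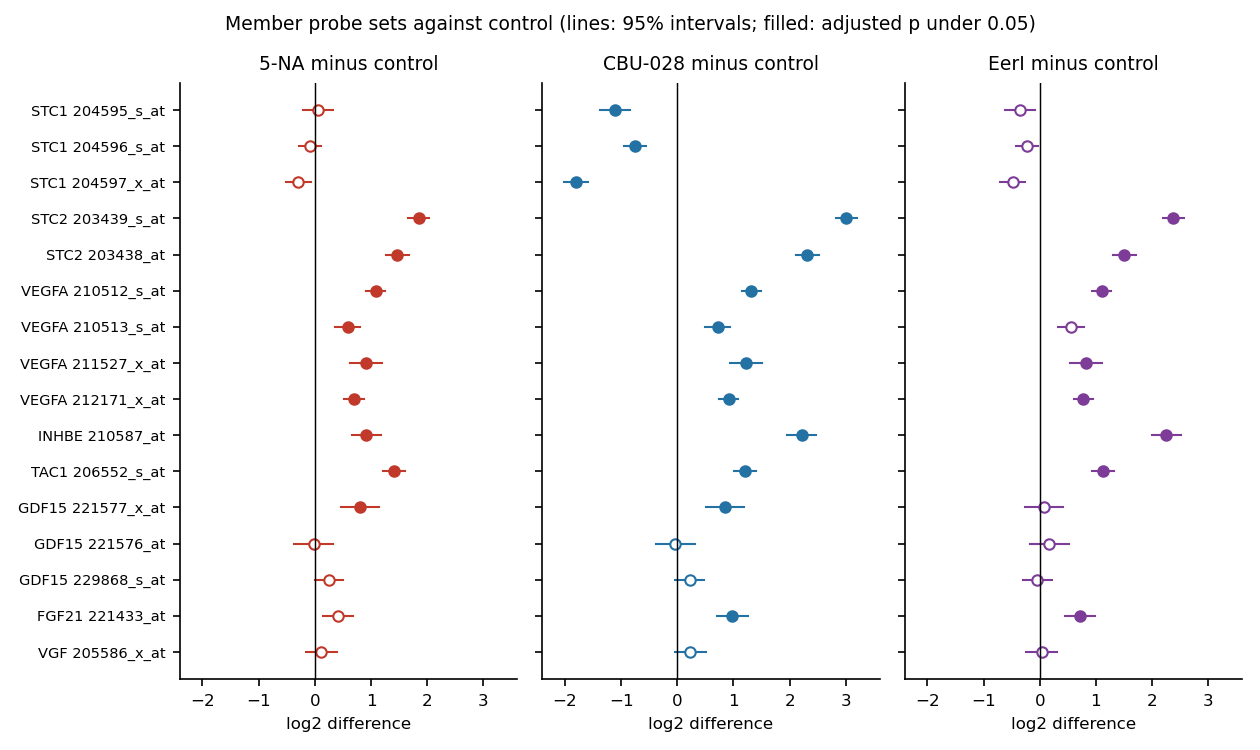
Log2 difference from control cells (horizontal axis) of all 16 member probe sets for 5-NA, CBU-028 and EerI, with 95% intervals as lines. Filled points passed an adjusted p under 0.05 in limma: 9 with 5-NA (15.2% of all probe sets), 13 with CBU-028 (9.67%) and 8 with EerI (0.527%). The 3 STC1 probe sets are filled and left of zero with CBU-028.

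The compounds, which shared dose and time, were then set against each other in 3 pairs, with p-values adjusted over all probe sets within each pair. 5-NA corresponds to the nitrofuran-containing part of EerI, so 5-NA and EerI differ at least by the aromatic part. Compounds given at an equal dose need not be equally potent. Whether the aromatic part or potency underlies a difference between 5-NA and EerI was not tested. In 5-NA against CBU-028, 3 member probe sets were higher (5.51% of all probe sets) and 4 lower (5.09%). In 5-NA against EerI, 2 were higher (6.93% of all) and 2 lower (7.08%). In CBU-028 against EerI, 3 were higher (1.28% of all) and 3 lower (1.67%). STC2, STC1, INHBE, GDF15 and FGF21 account for these calls, and VEGFA, TAC1 and VGF were called in none of the 3 pairs.

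On the brighter probe sets of the stanniocalcins, all 3 pairs of compounds differed. STC2 was 2.24-fold lower with 5-NA than with CBU-028 (log2 difference −1.16 ± 0.08, limma adjusted p = 0.000431) and 1.45-fold lower with 5-NA than with EerI (−0.53 ± 0.08, adjusted p = 0.00373). It was 1.55-fold higher with CBU-028 than with EerI (0.63 ± 0.08, adjusted p = 0.0104). The second STC2 probe set gave −0.85 and 0.81 for the pairs with CBU-028, both called, and −0.04 (95% interval −0.25 to 0.17) for 5-NA against EerI, where no difference was called. STC1 was 2.25-fold higher with 5-NA than with CBU-028 (1.17 ± 0.12, adjusted p = 0.00107) and 1.69-fold lower with CBU-028 than with EerI (−0.76 ± 0.12, adjusted p = 0.0164), and all 3 of its probe sets were called in both pairs. Between 5-NA and EerI, STC1 was higher with 5-NA on 204595_s_at alone (0.41 ± 0.12, adjusted p = 0.0485), and this call was lost without either 5-NA array or either EerI array (difference 0.30 to 0.52, adjusted p = 0.0771 to 0.301). For CBU-028 against EerI, the calls of STC1 on 204595_s_at and of STC2 on 203439_s_at were lost without EerI replicate 1 (adjusted p = 0.0937 for each) or EerI replicate 2 (adjusted p = 0.139 for STC1 and 0.109 for STC2), with differences of −0.86 to −0.65 for STC1 and 0.59 to 0.67 for STC2. The other probe set of STC2 and 204596_s_at of STC1 also lost theirs, whereas STC1 on 204597_x_at stayed lower without either EerI array (adjusted p = 0.0283 and 0.0418). A fit of the CBU-028 and EerI arrays alone called none of these probe sets (adjusted p = 0.0546 to 0.117 for STC1 and 0.083 to 0.0869 for STC2).

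INHBE separated 5-NA from both larger responses. It was 2.45-fold lower with 5-NA than with CBU-028 (log2 difference −1.29 ± 0.11, limma adjusted p = 0.000743) and 2.52-fold lower than with EerI (−1.33 ± 0.11, adjusted p = 0.000329), and in both pairs it had the fourth lowest difference of all genes. Between CBU-028 and EerI the difference was −0.04 (95% interval −0.29 to 0.21). FGF21 was 1.48-fold lower with 5-NA than with CBU-028 (−0.57 ± 0.12, adjusted p = 0.0193), a call lost without 5-NA replicate 1 (adjusted p = 0.093), 5-NA replicate 2 (0.101) or CBU-028 replicate 2 (0.0542). For 5-NA against EerI FGF21 differed by −0.30 (95% interval −0.58 to −0.03, adjusted p = 0.146) and for CBU-028 against EerI by 0.27 (−0.01 to 0.54, adjusted p = 0.302).

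GDF15 had a different order. On 221577_x_at it was 1.65-fold higher with 5-NA than with EerI (log2 difference 0.73 ± 0.15, limma adjusted p = 0.0129) and 1.7-fold higher with CBU-028 than with EerI (0.77 ± 0.15, adjusted p = 0.0331), whereas 5-NA and CBU-028 differed by −0.04 (95% interval −0.38 to 0.30). Its other 2 probe sets were called in no pair. The call for CBU-028 against EerI was lost without either 5-NA array (adjusted p = 0.0614 for each), CBU-028 replicate 1 (0.0871), EerI replicate 1 (0.213) or EerI replicate 2 (0.185), and that for 5-NA against EerI without 5-NA replicate 1 (0.0947), EerI replicate 1 (0.083) or EerI replicate 2 (0.0782).

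VEGFA and TAC1 changed by amounts that the tests did not separate. For VEGFA on 210512_s_at, the difference was −0.02 (95% interval −0.19 to 0.16) for 5-NA against EerI, −0.23 (−0.41 to −0.06, limma adjusted p = 0.0918) for 5-NA against CBU-028 and 0.22 (0.04 to 0.39, adjusted p = 0.178) for CBU-028 against EerI. No other VEGFA probe set was called in a pair. On 211527_x_at the difference was −0.32 (−0.61 to −0.04, limma adjusted p = 0.154) for 5-NA against CBU-028 and 0.40 (0.11 to 0.69, adjusted p = 0.136) for CBU-028 against EerI. For TAC1 it was 0.21 (0.02 to 0.41, adjusted p = 0.169) for 5-NA against CBU-028, 0.29 (0.10 to 0.49, adjusted p = 0.0556) for 5-NA against EerI and 0.08 (−0.12 to 0.27, adjusted p = 0.705) for CBU-028 against EerI. The intervals of VEGFA on 210512_s_at and of TAC1 all lie within 0.49 of zero, and some exclude zero without passing the adjusted threshold. On these probe sets, TAC1 in 5-NA against EerI passed it in 6 of 22 alternatives and VEGFA in 5-NA against CBU-028 in 3 of 22. VEGFA on 210512_s_at passed it in 0 of 22 in CBU-028 against EerI. These counts do not cover the other VEGFA probe sets. VGF differed by −0.12 (−0.39 to 0.16), 0.08 (−0.19 to 0.35) and 0.20 (−0.08 to 0.47) in the same pairs.

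**Figure D3:**
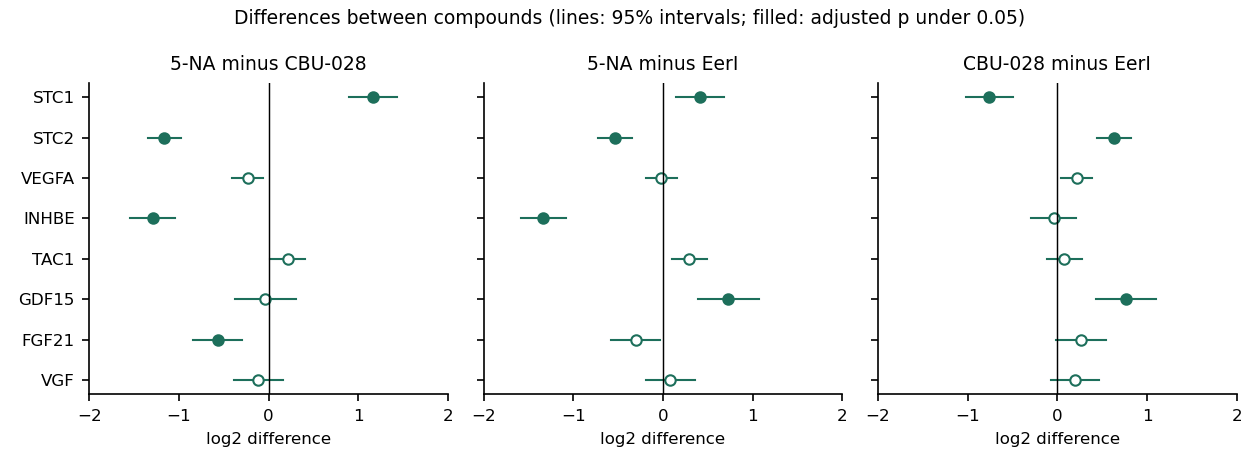
Log2 difference between compounds (horizontal axis) for the brightest probe set of each of the 8 genes, in 5-NA minus CBU-028, 5-NA minus EerI and CBU-028 minus EerI, with 95% intervals as lines and filled points for an adjusted p under 0.05. INHBE lies left of −1 in both panels with 5-NA and at −0.04 in that of CBU-028 minus EerI, and STC1 and STC2 lie on opposite sides of zero in every panel.

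Genes around the members were read from lists, with 1 probe set a gene. Over all 19775 genes on that basis, 7.87% were higher and 10.9% lower with 5-NA, 5.49% higher and 7.1% lower with CBU-028, and 0.506% higher and 0.263% lower with EerI. Of 13 measured transcription factors of the stress pathways, 9 rose and 0 fell with 5-NA, 7 rose and 0 fell with CBU-028, and 6 rose and 1 fell with EerI. At an unadjusted p under 0.05, 0 were lower with 5-NA and 2 with CBU-028. The median log2 difference of this list was 0.75 with 5-NA, 0.46 with CBU-028 and 0.28 with EerI. ATF3, which is itself induced by ATF4, read 11.99 and 11.72 in 5-NA cells, 12.75 and 12.60 in CBU-028 cells and 11.70 and 11.70 in EerI cells, against 9.77 and 9.89 in control cells, differences of 2.03, 2.84 and 1.87. DDIT3, which encodes CHOP, rose by 1.55, 2.36 and 1.82 in the same order of compounds, CEBPG by 1.74, 1.94 and 1.25, and CEBPB by 1.03, 1.57 and 1.32. EGR1, an immediate early factor, rose by 1.40 with 5-NA and differed by 0.28 with CBU-028 and 0.07 with EerI. Its arrays read 8.50 and 7.61 in 5-NA cells, the widest gap among the named factors, against 6.76 and 6.54 in control cells. EPAS1, the hypoxia factor, was the gene that fell with EerI (−0.46, limma adjusted p = 0.0412), and it rose by 0.66 with 5-NA.

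Calls among other secreted factors came with 5-NA and CBU-028, and whether the counts differ from that with EerI was not tested. Of 35 measured hormones, cytokines and growth factors outside the 8 genes, 7 rose and 0 fell with 5-NA, 6 rose and 1 fell with CBU-028, and 0 rose and 0 fell with EerI. With limma's unadjusted p under 0.05, 0 were lower with 5-NA, and 5 were higher and 0 lower with EerI, and the methods' ANOVA with adjustment called 0 with EerI. HBEGF, a ligand of the epidermal growth factor receptor, read 10.04 and 9.63 in 5-NA cells, 8.73 and 8.68 in CBU-028 cells and 8.34 and 8.36 in EerI cells, against 8.31 and 8.37 in control cells. The rise of HBEGF with 5-NA was 1.49 ± 0.12 on the log2 scale (limma adjusted p = 0.000237). ADM, the vasodilator adrenomedullin, rose by 1.37 with 5-NA (arrays at 11.69 and 11.73 in 5-NA cells, against 10.35 and 10.32 in control cells) and by 0.46 with CBU-028. IL1A rose by 0.85 with 5-NA. The matricellular factors CCN2 and CCN1 rose by 0.92 and 0.87 with CBU-028, where PDGFA and FGF2 rose by 0.57 each, and CCN2 rose by 0.88 with 5-NA.

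Receptors, relatives and processing enzymes of the members formed 3 short lists. Over all genes, 7.87% were higher and 10.9% lower with 5-NA, 5.49% and 7.1% with CBU-028, and 0.506% and 0.263% with EerI. Whether the shares of these lists differ from those was not tested. Among 17 measured receptors and co-receptors, 2 rose (11.8%) and 1 fell (5.88%) with 5-NA, and 1 rose (5.88%) and 3 fell (17.6%) with CBU-028. With EerI 0 rose and 1 fell (5.88%), and unadjusted in limma 1 was higher and 2 were lower. Among the FGF receptors, which FGF21 uses, FGFR2 fell by 0.47 with 5-NA and by 0.85 with CBU-028, FGFR3 by 0.53 with CBU-028 and by 0.55 with EerI, and FGFR1 by 0.31 with CBU-028. FGFR4 and the co-receptor KLB were called with no compound, with differences of −0.15 to 0.02 for FGFR4 and −0.18 to 0.05 for KLB, and with 5-NA FGFR1 and FGFR3 were not called (0.04 and −0.11). With EerI FGFR1 (−0.18) and FGFR2 (−0.47, limma adjusted p = 0.0639) were not called. ACVR2A, an activin receptor, rose by 0.57 with 5-NA and by 0.51 with CBU-028, and ACVR1B by 0.34 with 5-NA. Of 23 measured family relatives, 2 rose (8.7%) and 1 fell (4.35%) with 5-NA, with INHBB at 0.71, SCG5 at 0.79 and GDF11 at −0.28. With CBU-028 1 relative rose (SCG2, 0.57, 4.35% of the list) and 0 fell, and 0 were called with EerI. The counts of relatives at an unadjusted p under 0.05 were 2 lower with CBU-028, and 2 higher and 1 lower with EerI. Of 9 measured enzymes that cut or trim hormone precursors, PCSK6 (0.53) and the convertase inhibitor PCSK1N (0.49) rose with 5-NA (22.2%). With 5-NA 0 enzymes fell, and 0 were called with CBU-028 or EerI. Unadjusted, 0 enzymes were lower with 5-NA, 1 was higher and 3 were lower with CBU-028, and 0 were higher and 1 was lower with EerI. The methods' ANOVA with adjustment called 0 with EerI in the lists of receptors, relatives and enzymes.

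**Figure D4:**
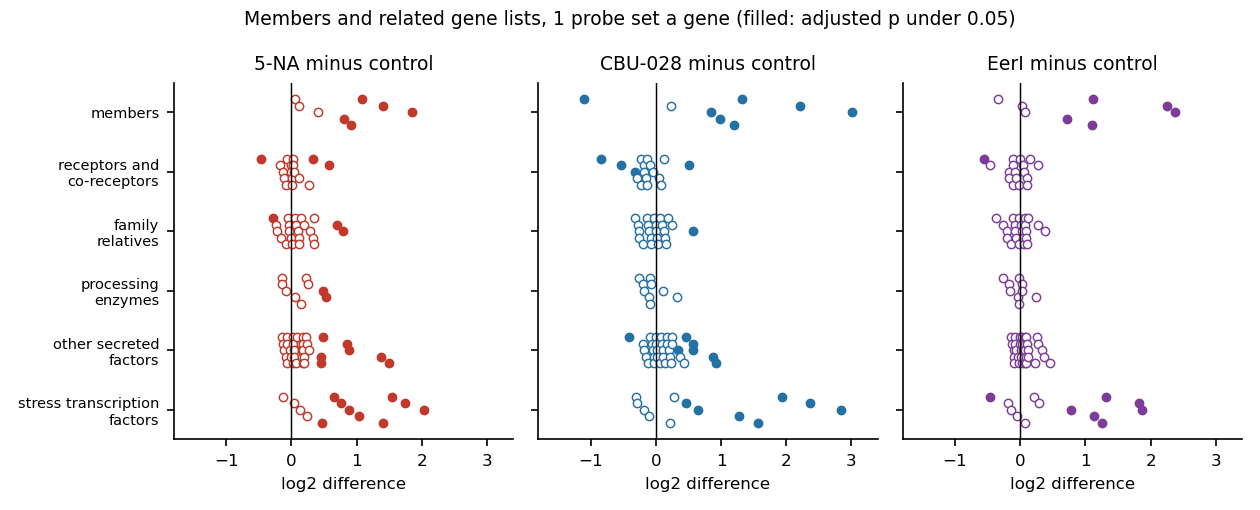
Log2 difference from control cells (horizontal axis) of the 8 member genes and of the 5 gene lists, 1 point a gene, for 5-NA, CBU-028 and EerI; filled points passed an adjusted p under 0.05 and vertical spacing within a row only separates the points. With EerI, 0 of 35 other secreted factors and 5 of 8 members are filled. Over all genes, 0.506% were higher and 0.263% lower with EerI. The members and lists were chosen with earlier results of these data known.

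The genes with the most similar response were found by the Euclidean distance between their 3 log2 differences from control, over all genes outside the 8 and as a description, since the 3 differences share the control arrays. Nearest to STC2 were ATF3 (distance 0.57), the cystine transporter gene SLC7A11 (0.57) and DDIT4 (0.89), an inhibitor of mTORC1 signalling. DDIT4 was also nearest to INHBE (0.41), followed by CTH (0.48), which makes cysteine from cystathionine, and JDP2 (0.56), a repressor of AP-1. VEGFA lay nearest XBP1 (0.20), a transcription factor of the unfolded protein response, and HERPUD1 (0.24), a component of ER-associated degradation, then ARRDC3 (0.26). For TAC1 they were IFRD1 (0.23), GCLM (0.35), a subunit of the enzyme for the first step of glutathione synthesis, and ARRDC3 (0.39). FGF21 had NUPR1 (0.10), a stress-induced nuclear protein, ARRDC4 (0.11) and CSTA (0.17) beside it. GDF15 had ZNF420 (0.09), CCN2 (0.12) and ZSCAN16 (0.14), genes with differences of 0.75 to 0.92 with 5-NA and CBU-028 and of 0.04 to 0.17 with EerI. STC1 lay nearest COL4A2 (0.17), RFX6 (0.19) and COL2A1 (0.26), of which COL4A2 and COL2A1 encode collagen chains, with differences of −0.92 to −1.30 with CBU-028. For VGF no gene was named because its 3 differences were too small (length 0.26, below 1).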

How the data were processed

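RNA of 293T cells was measured on 8 Affymetrix arrays, 2 a group. The values were deposited on the log2 scale after processing by the authors with RMA (background correction, quantile normalization, summary per probe set), and the labels also name Partek, each without a version. The identifiers of the probe sets are those of HG-U133 Plus 2.0, an array other than the one that the methods name. TRIzol with RNeasy MinElute is named for RNA in the methods and an RNeasy kit in the labels.

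Differences between groups came from a linear model in limma 3.58.1 (R 4.3.3) over all 8 arrays (4 residual and 5.08 prior degrees of freedom), with 6 comparisons and Benjamini-Hochberg adjustment over all 54675 probe sets of each. The fit was tested on simulated data in which the changed genes were known. The number of arrays limits the precision: an exact permutation test of 2 against 2 arrays cannot go below p = 0.333. Probe sets were named from the platform annotation (41097 with a single symbol, 1801 with several). Where 1 probe set a gene was needed, it was the one with the highest mean. Probe sets with several symbols were not used as genes.

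The members, gene lists and motifs were chosen with earlier results of these data known. Named were all 8 members with every probe set, up to 4 genes a list and control comparison with the largest called difference, and the 3 genes nearest each member whose 3 differences from control have a length of at least 1. Genes outside these limits, EPAS1 among them, were named after their values were seen. The promoter set of RefSeq gave the sequences. Alternatives were the methods' ANOVA, fold thresholds, floors on dim probe sets, renewed quantile normalization, median centring, other choices of probe set, a replicate block, fits of only 2 groups, a trended prior variance, array weights and leaving out each array. Plots used matplotlib 3.10.9 (Python 3.11.15).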

Additional observations from a re-analysis of the deposited data

How the results depend on the processing

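The counts of member probe sets called, of 16, were 9, 13 and 8 for 5-NA, CBU-028 and EerI against control and 7, 4 and 6 for 5-NA against CBU-028, 5-NA against EerI and CBU-028 against EerI. Of all 54675 probe sets, 15.2%, 9.67%, 0.527%, 10.6%, 14% and 2.95% were called in the same order. That share moved with the setting as well, so a changed count is not by itself a change in the members. With a fold of at least 2, and equally with the methods' ANOVA at an unadjusted p and 2-fold, the member counts were 4, 8, 5, 4, 1 and 1. With the fold threshold in limma, 0.613%, 0.43%, 0.0988%, 0.291%, 0.492% and 0.0732% of all probe sets were called. The methods' ANOVA with adjustment gave 3 for EerI against control (0.0969% of all), 2 for 5-NA against EerI (7.07%) and 0 for CBU-028 against EerI (0.102%). A fold of at least 1.5 gave 2 for 5-NA against EerI (4.02%). With 1 probe set per gene, so with 8 tested, the counts were 7 for CBU-028 (16.6% of all genes) and 5 for EerI (1.71%) against control. They were 3 for CBU-028 against EerI (6.79%). Fitting only the groups compared gave 0 for CBU-028 against EerI (0.011% of all), with adjusted p = 0.0864 for STC1 and GDF15 and 0.0869 for STC2. Leaving out 1 array in turn moved both the member counts and the share of all probe sets called. A group then held 1 array, so those counts are not given. The cause was not tested for these moves, apart from the fewer probe sets of the 1-per-gene test and the stricter rule of the fold thresholds. RMA values carry no detection call, so how far dim probe sets stand above background is not known. On the probe set of each gene with the highest mean, every call against control kept its direction under all alternatives. INHBE and TAC1 with EerI missed the adjusted threshold in the methods' ANOVA (adjusted p = 0.0525 and 0.0545). So did GDF15 with 5-NA (0.102) and CBU-028 (0.12), and FGF21 with CBU-028 (0.0549) and EerI (0.273). INHBE with 5-NA and the calls of GDF15 and FGF21 missed 2-fold. The second probe set of STC2, 203438_at, missed the adjusted threshold with EerI in that ANOVA (0.0525). Of 660 counts over the gene lists under an alternative, 187 moved by over 1.5 times. Over 22 alternatives, the stress transcription factors called against control numbered 5 to 10 with 5-NA, 5 to 9 with CBU-028 and 2 to 8 with EerI, the other secreted factors 2 to 9, 0 to 8 and 0 to 1, the receptors 0 to 3, 0 to 4 and 0 to 2, the relatives 0 to 5, 0 to 3 and 0, and the enzymes 0 to 3, 0 to 1 and 0.

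Deviations from the group means of arrays with the same replicate number correlated at −0.146 to 0.146. The labels do not say what the numbers mark, and weak correlations cannot show whether same-numbered arrays shared a day or culture. With a replicate block the counts were 9, 13, 8, 7, 3 and 6 (14.5%, 8.85%, 0.401%, 9.74%, 13.2% and 2.39% of all probe sets). The calls of FGF21 with EerI (adjusted p = 0.0774) and of STC1 in 5-NA against EerI (adjusted p = 0.0648) were lost.

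The sign turned only for differences that were not called under the alternative, 11 times with 1 array left out and 11 times on another probe set of the same gene. Over the arrays left out in turn, VGF ranged from −0.0457 to 0.2736 with 5-NA and from −0.0045 to 0.0716 with EerI against control, from −0.2765 to 0.0428 for 5-NA against CBU-028 and from −0.0793 to 0.24 for 5-NA against EerI. GDF15 ranged from −0.1534 to 0.3094 with EerI against control and from −0.1574 to 0.0795 for 5-NA against CBU-028, INHBE from −0.1151 to 0.0336 for CBU-028 against EerI, and STC1 from −0.099 to 0.2254 with 5-NA against control. On the other probe sets of the same gene, GDF15 on 221576_at was −0.0169 with 5-NA and −0.0319 with CBU-028 against control, 0.015 for 5-NA against CBU-028, −0.1845 for 5-NA against EerI and −0.1996 for CBU-028 against EerI, and on 229868_s_at −0.0415 with EerI against control and 0.0278 for 5-NA against CBU-028. STC1 with 5-NA was −0.0857 on 204596_s_at and −0.293 on 204597_x_at. VEGFA in 5-NA against EerI was 0.025 on 210513_s_at and 0.0771 on 211527_x_at.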
